A study of Mus musculus with 4 samples.

Results

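The integrin and laminin genes were described across the stromal and bone-forming cells of a single-cell RNA-seq experiment on disuse of the mouse hindlimb. Members were all genes whose symbol is Itga or Itgb followed by a digit or letter, or Lama, Lamb or Lamc followed by a digit, with at least 20 UMIs (unique molecular identifiers, each counting 1 captured mRNA) over the lane 1 matrices. Of 32286 features, 39 carried such a symbol and 33 reached the minimum, 24 integrin genes and 9 laminin genes; the binding proteins Itgb1bp and Itgb3bp were left out. The member closest above the minimum was Itgb4 with 21 UMIs, and the gene closest below was Itgae with 12.

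Integrins are cell surface receptors made of an alpha and a beta subunit, which bind matrix proteins or counter-receptors outside the cell and are linked inside it to actin through talin and kindlin. Laminins are secreted heterotrimers of an alpha, a beta and a gamma chain and form a sheet of basement membrane, for which several integrins are receptors. In bone, integrins of osteoblasts and marrow stroma bind collagen, fibronectin and osteopontin and are widely studied as sensors of mechanical load.

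The cells came from mice on the C57BL/6J background that carried, with the allele Tnfsf11 tTA/+, a tetracycline transactivator in the gene for RANKL (the cytokine that induces osteoclasts), as well as the transactivator-dependent Cre line LC1 and a Cre-activated tdTomato reporter at Rosa26. Both groups carried all these alleles and both were given doxycycline from embryonic day 0 until birth, which kept labelling off before birth. The immobilized group had its hindlimbs immobilized for 2 weeks from 8 weeks of age, and the control group had 0 weeks of immobilization; all animals were 10 weeks old. Bone and marrow cells of 6 immobilized and of 4 control animals were pooled by group after a sort that kept live tdTomato+ cells and dropped CD45.2+ or Ter119+ blood cells. Labelling follows activity of the Tnfsf11 locus in a cell or its ancestor, and Tnfsf11 itself stood at 235.9 CPM (counts per 1e+06 UMIs) in immobilized and 92.0 CPM in control CAR cells, a class defined below; its part in which cells were sorted was not tested. Each group is 1 pool sequenced on 2 lanes, so the spread between animals is unknown, no difference has a replicate check and p-values are not given; every interval covers counting error only.

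The lanes held 9960011 and 10084134 UMIs in the immobilized pool and 10732720 and 10860328 in the control pool. After filtering, 1394 immobilized and 1411 control cells remained, of which 3 barcodes occurred in both pools. Clusters were named by marker genes, and 3 classes were compared. Lepr+ CAR stromal-like cells carry Lepr, Cxcl12 and Kitl, as reticular cells of marrow stroma do (329 immobilized and 558 control cells), osteo-primed stromal-like cells carry Wif1, Limch1 and Postn (344 and 206 cells), and osteoblast-like cells carry Ifitm5 and Smpd3 (478 and 473 cells). Of the osteoblast-like clusters, cluster 4 was named on 3 markers only (Ifitm5, Smpd3 and Sp7). Bglap and Col1a1 did not count as its markers against all other cells, which include the other osteoblast-like clusters. Col1a1 was among its leading genes against cells outside the class. By Xist and Y-linked UMIs, female cells made up, of the cells with a call, 27.6% in the immobilized and 47.4% in the control pool of the CAR class, 55.4% and 66.0% of the osteo-primed class, and 77.3% and 92.7% of the osteoblast-like class. Summed UMIs of 7 granulocyte genes, which the sort should remove, came to 356.0 CPM in immobilized and 177.0 CPM in control CAR cells, 253.1 and 112.0 CPM in osteo-primed cells and 187.2 and 75.4 CPM in osteoblast-like cells, and their part in the results was not tested.

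The promoters of 5 members are printed because the level of each differs between some of the 3 classes. Among these classes, Itga1 and Lamb1 are led by the CAR class, Itga10 by osteoblast-like cells and Itgb5 by osteo-primed cells. Lamb2 is the beta chain that stays high in bone-forming cells. Each window runs from 250 bases before to 50 after the start of the RefSeq gene, 5′ to 3′ on its own strand, on GRCm38.p6 (mm10). They lie at chr13:115101915-115102214 on the minus strand (Itga1), chr3:96645334-96645633 (Itga10), chr12:31265043-31265342 (Lamb1), chr9:108479612-108479911 (Lamb2) and chr16:33829415-33829714 (Itgb5), the last 4 on the plus strand. Capitals mark matches on either strand to GGGCGG (the GC box) or GGAATG (the motif of TEAD factors); TATAAA (the TATA box), TGTGGT (the RUNX motif) and TGANTCA (the AP-1 motif) were searched as well and had no match in these windows. No 2 matches overlap.
Itga1: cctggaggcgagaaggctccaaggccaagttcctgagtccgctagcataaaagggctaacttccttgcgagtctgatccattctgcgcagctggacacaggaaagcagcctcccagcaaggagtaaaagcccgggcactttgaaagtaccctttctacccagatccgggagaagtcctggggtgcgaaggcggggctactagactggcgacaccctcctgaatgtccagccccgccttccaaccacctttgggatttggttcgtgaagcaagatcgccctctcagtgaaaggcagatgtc
Itga10: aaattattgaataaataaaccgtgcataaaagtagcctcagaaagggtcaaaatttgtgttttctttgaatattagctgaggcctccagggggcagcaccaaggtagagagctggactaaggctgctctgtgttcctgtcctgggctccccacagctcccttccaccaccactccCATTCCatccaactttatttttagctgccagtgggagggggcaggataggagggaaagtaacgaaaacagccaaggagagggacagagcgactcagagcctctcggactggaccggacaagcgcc
Lamb1: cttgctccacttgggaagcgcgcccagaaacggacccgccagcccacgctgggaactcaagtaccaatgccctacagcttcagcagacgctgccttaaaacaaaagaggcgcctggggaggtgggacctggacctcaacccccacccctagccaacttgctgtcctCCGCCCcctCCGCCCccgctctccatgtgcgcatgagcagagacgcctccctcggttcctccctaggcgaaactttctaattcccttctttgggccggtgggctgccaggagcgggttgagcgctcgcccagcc
Lamb2: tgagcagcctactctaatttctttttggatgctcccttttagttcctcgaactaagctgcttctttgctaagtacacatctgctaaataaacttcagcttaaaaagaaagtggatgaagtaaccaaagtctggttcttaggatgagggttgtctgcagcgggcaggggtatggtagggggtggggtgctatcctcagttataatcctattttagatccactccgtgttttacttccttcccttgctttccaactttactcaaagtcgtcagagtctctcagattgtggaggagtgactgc
Itgb5: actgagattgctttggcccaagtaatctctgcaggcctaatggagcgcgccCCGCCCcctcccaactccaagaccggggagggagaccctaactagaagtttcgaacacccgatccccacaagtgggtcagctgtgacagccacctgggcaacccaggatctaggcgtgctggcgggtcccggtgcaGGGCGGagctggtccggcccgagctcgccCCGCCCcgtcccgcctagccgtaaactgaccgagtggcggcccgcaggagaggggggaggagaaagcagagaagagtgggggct

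The GC box occurred 3 times in the Itgb5 window and 2 times, as its reverse complement CCGCCC, in that of Lamb1, and not in those of Itga1, Itga10 and Lamb2. A GC box was held by 13 of the 23 member promoters in the RefSeq table, which cover 22 of the 33 members, and by 35.7% of all 32851 promoters. TATAAA stood in 0 of the 23 and in 13.6% of all promoters. The RUNX motif, the AP-1 motif and the TEAD motif were each in 2 of the 23 member promoters, against 16.8%, 7.81% and 14.7% of all. G and C made up 56.7% of the Itga1 window, 51.0% of Itga10, 63.7% of Lamb1, 44.0% of Lamb2 and 65.7% of Itgb5, beside a median of 52.7% over all promoters. A match is a run of letters and says nothing of binding, and the promoters of all classes and pools are the same.

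A member entered the comparisons in a class where it averaged at least 50 UMIs per lane in at least 1 pool, and a ratio counted as past the threshold at 1.5-fold (0.585 on the log2 scale). Of the 33 members, 16 did so in some class and 17 did not. UMIs are lane means and so can end in 0.5. Levels are CPM of the summed UMIs of a class; they are counted at the 3′ end of the mRNA, not per length, and are compared between cells and not between genes.

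Among the collagen-binding alpha subunits, Itga1 and Itga10 had opposite orders of the classes. Itga1 (ENSMUSG00000042284, chromosome 13, 114953096 to 115101964), whose alpha 1 subunit pairs with beta 1 and prefers basement membrane collagen IV, stood at 466.5 CPM (434.5 to 500.3) in immobilized and 484.7 CPM (457.5 to 513.2) in control CAR cells. In osteo-primed cells it stood at 168.9 CPM (151.8 to 187.3) in the immobilized and 114.7 CPM (98.2 to 133.1) in the control pool. In osteoblast-like cells it stood at 6.58 CPM (4.33 to 9.57) and 4.90 CPM (3.18 to 7.20), from 27 and 25.5 UMIs. The order of the classes was the same in each pool and their intervals did not overlap. After thinning every cell to 2000 UMIs, 1.72% of immobilized and 0.644% of control osteoblast-like cells had an Itga1 UMI. In CAR cells these shares were 56.2% and 56.7%. They were 0.826% and 1.11% in haematopoietic-like cells, which were sorted against and numbered only 109 and 69 before thinning. Cluster 4, with 188 of the 478 immobilized and 74 of the 473 control osteoblast-like cells, held 55.6% and 37.3% of the class's Itga1 UMIs. The part of free RNA from other cells was not tested.

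Itga10 (ENSMUSG00000090210, chromosome 3, 96645584 to 96664519), whose alpha 10 subunit also pairs with beta 1 and is known from cartilage, ran the other way. It stood at 271.8 CPM (256.1 to 288.2) in immobilized and 205.4 CPM (193.3 to 218.1) in control osteoblast-like cells, at 116.3 CPM (102.2 to 131.8) and 110.4 CPM (94.3 to 128.5) in osteo-primed cells, and at 5.04 CPM (2.24 to 9.74) and 3.89 CPM (1.82 to 7.27) in CAR cells. Its share of thinned cells with a UMI was 43.6% in immobilized and 34.8% in control osteoblast-like cells, 20.0% and 18.8% in osteo-primed cells and 1.56% and 1.08% in CAR cells, with 0% of haematopoietic-like cells in each pool. A list of 7 chondrocyte markers summed to 623.0 CPM in immobilized and 2325.4 CPM in control osteoblast-like cells, the reverse order of the pools to that of Itga10; its part was not tested. The gene model of Gm42957 overlaps Itga10, and those of Pelo and Gm49395 overlap Itga1, each on the same strand, so reads could have been divided between them.

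Osteo-primed cells carried both genes at intermediate levels, and the pair was counted cell by cell in the sum of the lanes. In these cells 27.9% of the immobilized and 23.8% of the control pool had UMIs of both Itga1 and Itga10, where the product of the single shares was 30.7% and 29.2%. In CAR cells the shares with both were 3.95% and 3.05%, beside products of 4.06% and 2.63%. Cells with both genes were thus fewer than the product in osteo-primed cells of each pool, by a few percentage points. The clusters of the class did differ in Itga1: cluster 3, led by genes such as Ndnf and Angpt4, had 245.6 CPM in the immobilized and 167.1 CPM in the control pool, and cluster 7, with Megf10 and Spp1 among its leading genes, had 78.9 and 61.5 CPM. Itga10 was 116.7 and 118.4 CPM in cluster 3 and 115.8 and 102.2 CPM in cluster 7.

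Itga11 (ENSMUSG00000032243, chromosome 9, 62677826 to 62783982), the receptor subunit for fibrillar collagen on fibroblasts and osteoblasts, was spread over all 3 classes. It stood at 117.7 CPM in immobilized and 98.8 CPM in control CAR cells, 136.6 and 123.3 CPM in osteo-primed cells, and 111.9 and 68.4 CPM in osteoblast-like cells. In the immobilized pool the 3 levels lay within overlapping intervals, and in the control pool the osteoblast-like level (61.5 to 75.9) was below the other classes. Itga2, the fourth collagen-binding subunit, lies 21.0 kb from Itga1 on chromosome 13 but was highest in endothelial-like cells (142.9 CPM in the immobilized and 59.6 CPM in the control pool) and had at most 12.5 UMIs in the compared classes.

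**Figure D1:**
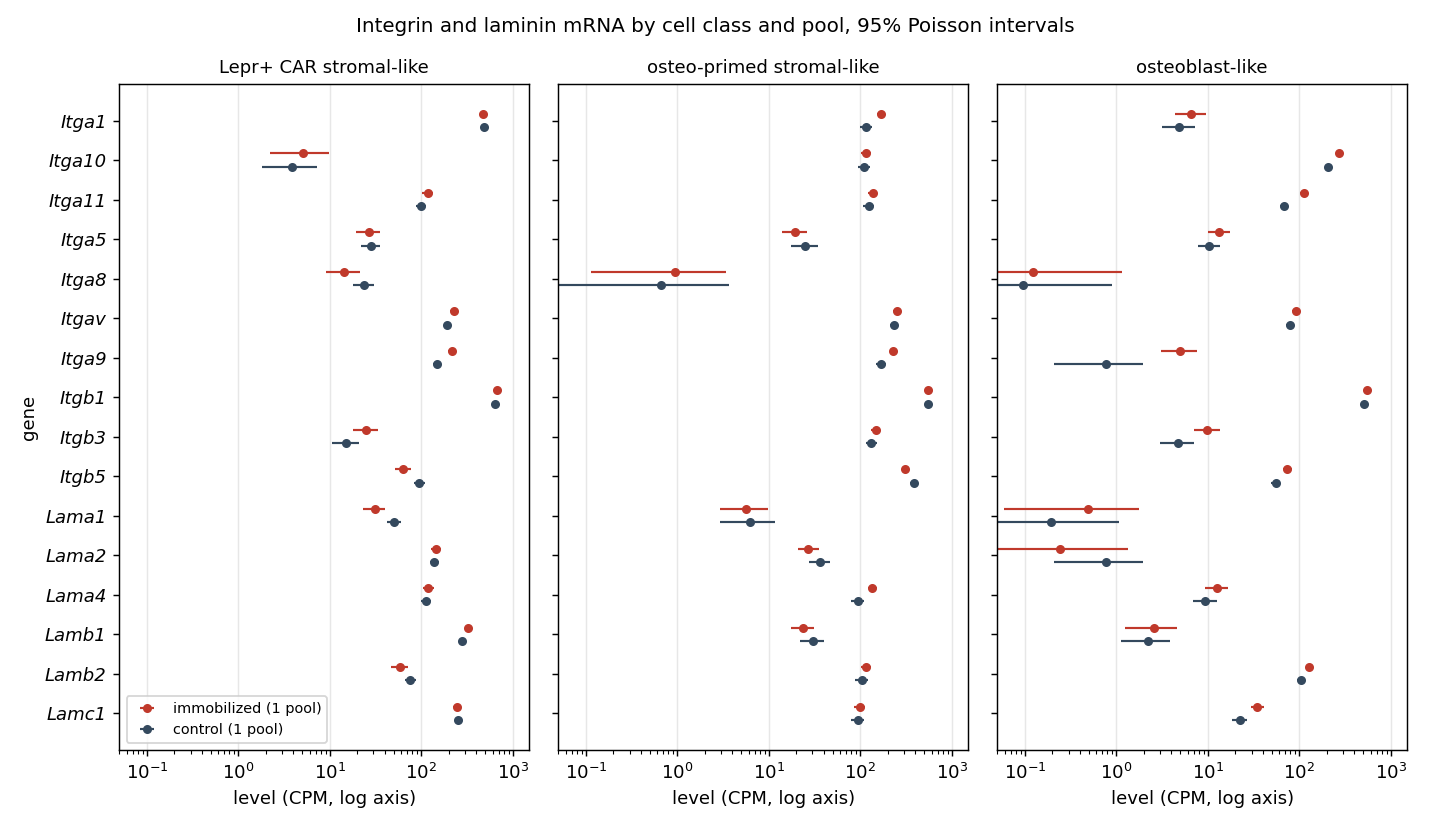
Level of each of the 16 members that reached the count minimum, as CPM on a log axis, in Lepr+ CAR, osteo-primed and osteoblast-like cells; points are the immobilized and the control pool (1 pool each) and bars the 95% Poisson interval, those that reach under 0.05 CPM being cut at the axis. Itga1 is at 466.5 and 484.7 CPM in CAR cells and 6.58 and 4.90 CPM in osteoblast-like cells, and Itga10 shows the opposite order.

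The RGD-binding alpha subunits recognise the tripeptide found in fibronectin, vitronectin and osteopontin. Itgav (chromosome 2, 83724397 to 83806916), the alpha v subunit, stood at 225.9 CPM in immobilized and 191.8 CPM in control CAR cells, 248.9 and 232.0 CPM in osteo-primed cells and 92.9 and 79.0 CPM in osteoblast-like cells. Its partners among the beta subunits were more restricted. Itgb3 (ENSMUSG00000020689, chromosome 11, 104608000 to 104670476), the beta 3 subunit of the osteopontin receptor, was a gene of osteo-primed cells, with 146.7 CPM (130.9 to 164.0) in the immobilized and 132.3 CPM (114.5 to 151.9) in the control pool. CAR cells had 42 and 36.5 UMIs and osteoblast-like cells 40.5 and 24.5 UMIs, each under the count minimum. After thinning, 3.60% and 2.94% of CAR cells and 1.94% and 1.93% of osteoblast-like cells had a UMI, beside 1.65% and 4.44% of haematopoietic-like cells. Cluster 4 held 91.4% of the osteoblast-like Itgb3 UMIs in the immobilized and 46.9% in the control pool. Osteocyte-like cells, 41 in the immobilized and 5 in the control pool, had 269.3 CPM in the immobilized pool. Itgb3 is also a gene of osteoclasts and megakaryocytes. Of 7 osteoclast markers, the fusion genes Ocstamp and Dcstamp, with Atp6v0d2 and Calcr, were at 0 in osteo-primed cells of each pool. The other 3, Ctsk, Acp5 and Mmp9, were detected in each pool, and the list summed to 488.8 CPM (immobilized) and 653.7 CPM (control). Mmp9 is among the leading genes of osteo-primed cluster 7, which held 53.9% and 54.6% of the Itgb3 UMIs of the class. The part of such cells was not tested.

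Itgb5 (ENSMUSG00000022817, chromosome 16, 33829665 to 33949338), whose beta 5 subunit pairs with alpha v as a vitronectin receptor, had the same leading class. It stood at 306.4 CPM (283.3 to 330.9) in immobilized and 381.9 CPM (351.3 to 414.4) in control osteo-primed cells, 73.8 and 55.3 CPM in osteoblast-like cells and 63.1 and 95.3 CPM in CAR cells. Between the last pair of classes the order turned with the pool, and in the immobilized pool their intervals (65.7 to 82.6, and 51.7 to 76.3) overlapped. Cells with UMIs of both Itgav and Itgb5 made up 69.2% of immobilized and 68.4% of control osteo-primed cells, and cells with both Itgav and Itgb3 50.6% and 45.1%, in the sum of the lanes; the products of the single shares were 68.4% and 64.5%, and 48.6% and 42.0%. Itgb8, the beta 8 subunit of a latent TGF-beta receptor, was also highest in osteo-primed cells, with 22.4 and 17.9 CPM from 47.5 and 27 UMIs.

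Itgb1 (chromosome 8, 128685654 to 128733200), the beta 1 subunit shared by most of the alpha subunits here, differed by less than 1.5-fold between the classes. It stood at 674.9 CPM in immobilized and 638.4 CPM in control CAR cells, 542.8 and 554.2 CPM in osteo-primed cells and 552.8 and 504.1 CPM in osteoblast-like cells. Itga5, the alpha 5 subunit of the fibronectin receptor, had 26.7 and 28.3 CPM in CAR cells, 19.3 and 24.9 CPM in osteo-primed cells and 13.4 and 10.4 CPM in osteoblast-like cells. Blood cells stood above these classes: its highest level was 124.8 CPM in erythroid-like cells (immobilized pool) and 96.7 CPM in B lineage-like cells (control pool). The part of their free RNA was not tested. Itga8, a receptor subunit for nephronectin, stood at 14.2 and 23.4 CPM in CAR cells and had at most 2 UMIs in the other compared classes. Its highest level was in adipocyte-like cells, at 33.5 CPM in the immobilized and 82.7 CPM in the control pool, from 25 and 7 cells.

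Itga9 (ENSMUSG00000039115, chromosome 9, 118606690 to 118901003), whose alpha 9 subunit binds tenascin-C and osteopontin, was shared by the stromal classes. It stood at 216.7 CPM in immobilized and 149.6 CPM in control CAR cells and at 228.8 and 166.7 CPM in osteo-primed cells, while the osteoblast-like class had 20.5 and 4 UMIs (4.99 and 0.768 CPM). Over all cells Itga9 was highest in endothelial-like cells, at 381.1 and 330.5 CPM. Within the CAR class its highest level was in cluster 12 (425.1 and 326.9 CPM), led by Kcnq3 and Chl1, and its lowest in cluster 6 (90.2 and 79.8 CPM), led by Nrg3. Within the osteo-primed class it was 357.0 and 292.7 CPM in cluster 3 and 78.4 and 38.8 CPM in cluster 7.

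Among the laminin beta chains, Lamb1 was highest in CAR cells and Lamb2 was lowest there, with a much smaller difference between classes for Lamb2. Lamb1 (ENSMUSG00000002900, chromosome 12, 31265234 to 31329644), the beta 1 chain, stood at 326.6 CPM in immobilized and 278.2 CPM in control CAR cells, 23.6 and 30.2 CPM in osteo-primed cells and 2.56 and 2.21 CPM in osteoblast-like cells. Lamb2 (ENSMUSG00000052911, chromosome 9, 108479736 to 108490530), the beta 2 chain, stood at 127.9 CPM in immobilized and 103.5 CPM in control osteoblast-like cells, 115.6 and 103.1 CPM in osteo-primed cells and 58.1 and 76.0 CPM in CAR cells. Thus the class with the lowest Lamb2 had the highest Lamb1, in each pool. The thinned shares with a Lamb1 UMI were 44.8% and 39.5% of CAR cells, 0.754% and 0.536% of osteoblast-like cells and 0% and 0% of haematopoietic-like cells. Cluster 4 held 76.2% and 56.5% of the Lamb1 UMIs of osteoblast-like cells, of 10.5 and 11.5 in all. The part of free RNA was not tested.

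Of the 3 classes, CAR cells had the highest Lamc1, the gamma 1 chain of most laminins, at 247.2 CPM (immobilized) and 253.0 CPM (control). Lamc1 stood at 98.1 and 93.1 CPM in osteo-primed cells and 34.8 and 22.5 CPM in osteoblast-like cells. Its highest level over all cells was 326.8 CPM in pericyte or smooth muscle-like cells (immobilized pool) and 308.9 CPM in endothelial-like cells (control pool). The alpha chains were spread over the classes in different ways. Lama2, the chain of muscle and nerve basement membrane, stood at 144.0 and 138.7 CPM in CAR cells and 27.1 and 36.1 CPM in osteo-primed cells, and had 1 and 4 UMIs in osteoblast-like cells. The order of the pools in osteo-primed cells was not stable: the log2 ratio of immobilized over control was -0.41 here, 2.66 with a stricter cell filter and 2.31 when cells were clustered without the listed genes, which left 148 and 110, and 200 and 111, osteo-primed cells. Lama4, a chain of mesenchymal and endothelial laminins, stood at 118.9 and 113.3 CPM in CAR cells, 135.2 and 94.1 CPM in osteo-primed cells and 12.5 and 9.41 CPM in osteoblast-like cells. Over all cells Lama4 was highest in osteocyte-like cells of the immobilized pool (484.7 CPM) and endothelial-like cells of the control pool (243.8 CPM). Lama1, the chain of early embryonic laminin, stood at 30.8 and 50.2 CPM in CAR cells and had at most 12 UMIs in the other classes. Lama2 was uneven within CAR cells: cluster 1, with Kit and Cxcl14 among its leading genes, had 444.7 CPM in the immobilized and 367.8 CPM in the control pool, while cluster 6 had 61.5 and 70.9 CPM. Pericyte or smooth muscle-like cells, 8 in the immobilized and 58 in the control pool, were above the CAR class in Lama2 (408.5 and 204.0 CPM) and Itga1 (560.2 and 693.7 CPM); the 8 markers of that type summed to 242.5 CPM in immobilized and 206.5 CPM in control CAR cells, and their part was not tested.

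**Figure D2:**
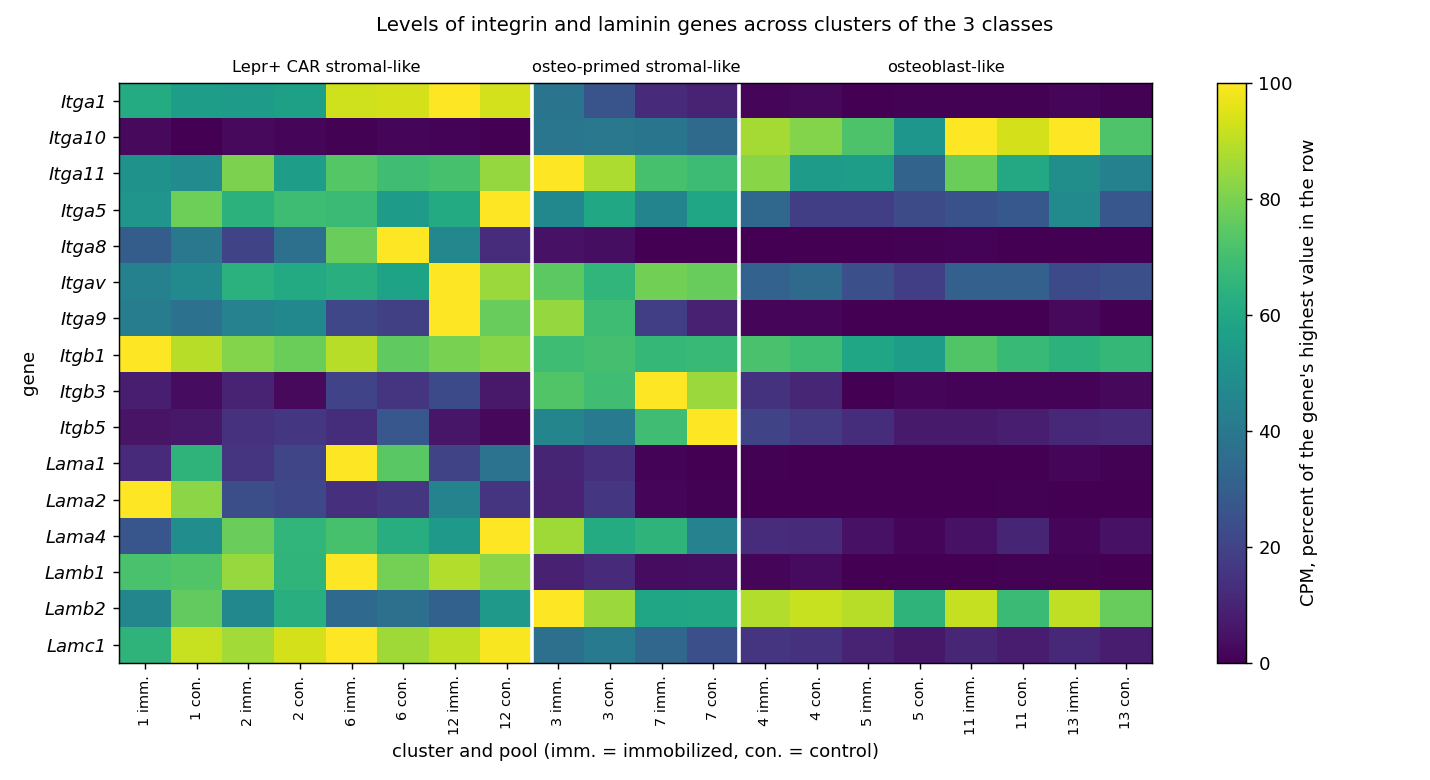
Level of the 16 members in each cluster of the 3 classes, immobilized pool left of control pool, as a percentage of the gene's highest CPM in its row. Itga10 is highest in the osteoblast-like clusters, Itgb3 and Itgb5 peak in the osteo-primed clusters 3 and 7, and Lama2 peaks in CAR cluster 1 at 444.7 and 367.8 CPM.

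Ratios between classes were set relative to the median gene wherever that median was beyond 0.1 on the log2 scale, which applied to both contrasts with osteoblast-like cells. The classes were built by clustering on all genes, these included, so the counts are a description. In osteo-primed over CAR cells, 4 of 14 members were past 1.5-fold higher and 5 lower in the immobilized pool, where 14.3% and 19.8% of all genes were. In the control pool 3 of 16 were higher and 6 lower, beside 12.4% and 23.5% of all genes. Itga10, Itgb3 and Itgb5 were higher and Itga1, Lama1, Lama2, Lamb1 and Lamc1 lower in each pool. In osteoblast-like over CAR cells 3 of 14 were higher and 8 lower in the immobilized pool (29.8% and 23.3% of all genes), and 2 of 15 higher and 10 lower in the control pool (30.1% and 28.4%). Itga10 and Lamb2 were the members higher in each pool; by total counts Lamb2 in the control pool was 1.36-fold higher, short of the threshold. In osteoblast-like over osteo-primed cells 1 of 14 was higher and 9 lower in the immobilized pool (21.3% and 16% of all genes), and 1 of 13 higher and 9 lower in the control pool (26.8% and 17.7%); the higher member was Itga10 each time. Shares of the members called lower stood above the background in each of these contrasts, while the shares called higher stood below it in the contrasts of osteoblast-like cells. Some members entered only through the class where they are high, such as Lama1 with 52 UMIs in CAR and 12 in osteo-primed cells (immobilized pool). Their lower call was thus partly set by the entry rule, which held for all genes. No trait of the members can be read from these shares.

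**Figure D3:**
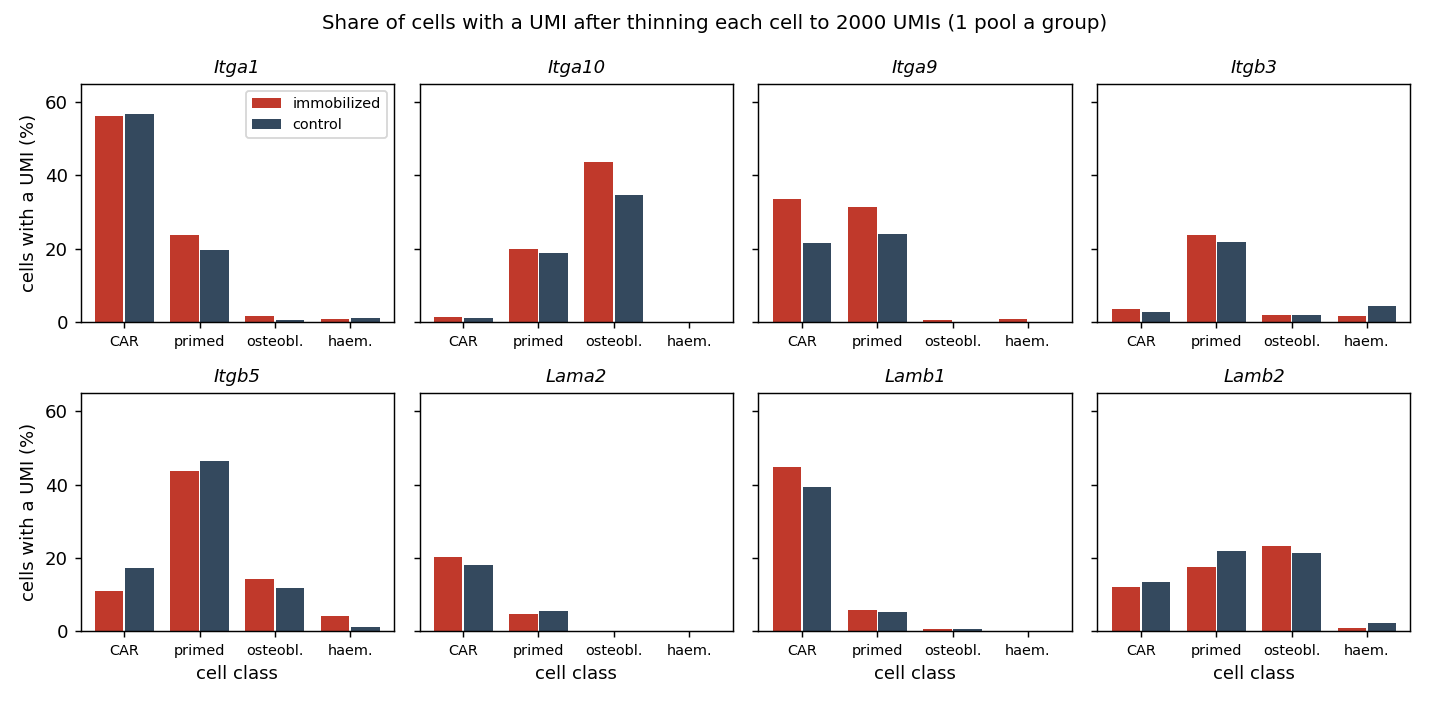
Share of cells with at least 1 UMI of 8 members after each cell was thinned to 2000 UMIs, in percent. Shown are the 3 classes and haematopoietic-like cells, which were sorted against. Immobilized bars stand left of control bars, and the part of free RNA was not tested. Itga1 was found in 56.2% and 56.7% of CAR cells, 1.72% and 0.644% of osteoblast-like cells and 0.826% and 1.11% of haematopoietic-like cells.

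The next comparison asks whether these genes differed between the immobilized and the control pool within a class. Few did. In CAR cells, of 14 members compared, 0 were past 1.5-fold higher and 3 lower in the immobilized pool, beside 4.15% of 7405 genes higher and 4.2% lower. In osteo-primed cells 0 of 13 were higher and 0 lower, beside 4.37% and 2.83% of 6547 genes. In osteoblast-like cells 0 of 9 were higher and 0 lower, beside 5.74% and 9.77% of 8046 genes; there the ratios are relative to the median gene, which stood 0.22 (log2) higher in the immobilized pool by total counts. The median log2 ratio of the members was 0.01 in CAR, 0.10 in osteo-primed and 0.19 in osteoblast-like cells, and that of all genes 0.00, 0.05 and -0.02.

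The 3 members lower in CAR cells of the immobilized pool were Itga8, Lama1 and Itgb5. Itga8 had 24 UMIs in the immobilized and 57 in the control pool, a log2 ratio of -0.70 (-1.47 to -0.0037). Lama1 had 52 and 122.5 UMIs, also -0.70 (-1.20 to -0.22). Itgb5 had 106.5 and 232.5 UMIs, -0.59 (-0.94 to -0.26), just past the threshold. The clusters of the class were not mixed alike in the pools: cluster 6, where Itga8 stood highest in the control pool (28.6 CPM immobilized, 37.1 CPM control), held 75 of the 329 immobilized and 236 of the 558 control cells. With each cluster weighted alike in the pools the ratios were -0.31 for Itga8, -0.12 for Lama1 and -0.50 for Itgb5, none past the threshold. By sex of the cells, Itgb5 was at -0.82 in female and 0.21 in male CAR cells, and Lama1 at 0.27 in female and -1.36 in male CAR cells, the last from 15.5 and 41 UMIs. Ratios in female CAR cells are relative to their median gene, which stood 0.10 higher in the immobilized pool; the difference between the sexes was not tested.

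Itgb5 differed by unequal amounts between clusters. In CAR cluster 6 it had 70.1 CPM in the immobilized and 146.4 CPM in the control pool, a log2 ratio of -1.04 (-1.74 to -0.44) by total counts. In osteo-primed cluster 7 it had 375.7 and 541.9 CPM, -0.53 (-0.74 to -0.32). In CAR clusters 1 and 2 the log2 ratios were -0.16 (-2.31 to 1.31) and -0.13 (-0.66 to 0.41), and in CAR cluster 12, with 11.5 and 2.5 UMIs, 1.29 (-0.53 to 4.26). In the other osteo-primed cluster, 3, it had 247.3 and 224.3 CPM, 0.14 (-0.14 to 0.42). UMIs of the gene in control osteo-primed cells were concentrated, with 23.9% of them in the 5 cells with the most, against 8.01% in the immobilized pool.

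Several members had ratios under the threshold whose counting interval did not include 0. In osteo-primed cells these were Itga1 at 0.56 (0.29 to 0.83), Lama4 at 0.52 (0.23 to 0.82), Itga9 at 0.46 (0.23 to 0.68) and Itgb5 at -0.32 (-0.48 to -0.15). With a looser cell filter Itga1 was at -0.19. In female osteo-primed cells alone Itga1 was at 0.77, Lama4 at 0.67 and Itga9 at 0.65, each past the threshold. In male cells they were at 0.24, 0.38 and -0.02. The share of all genes past the threshold in cells of 1 sex is not given, and the difference between the sexes was not tested. In CAR cells Itga9 was at 0.53 (0.32 to 0.75), Itgav at 0.24 (0.04 to 0.43), Lamb1 at 0.23 (0.07 to 0.40) and Lamb2 at -0.38 (-0.76 to -0.03). The Itga9 value was 0.13 with the clusters weighted alike, and its richest cluster, 12, held 66 of the 329 immobilized and 45 of the 558 control cells.

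In osteoblast-like cells Itga11 was at 0.49 (0.29 to 0.70), Lamc1 at 0.41 (0.05 to 0.78), Itga10 at 0.19 (0.06 to 0.31) and Itgb1 at -0.09 (-0.17 to -0.0037) relative to the median gene. By total counts Itga11 was at 0.71 and Lamc1 at 0.63, past 1.5-fold, and Itgb1 at 0.13. On that scale the median gene stood 0.22 higher in the immobilized pool, and the share of all genes past 1.5-fold is not given. Bglap, the osteocalcin gene that leads cluster 5, stood at 8901 CPM in the immobilized and 28612 CPM in the control pool of this class; its part in the shift of the median gene was not tested. Itga11 had higher CPM in the immobilized pool in each of the 4 clusters, for example 129.8 and 87.4 CPM in cluster 4 and 88.2 and 50.3 CPM in cluster 5. Within female and within male osteoblast-like cells it was at 0.45, relative to their median gene, and at 0.38 by total counts. Lamc1 was at 0.45 in female cells, relative to their median gene, and at -0.74 (-1.63 to 0.25) in male cells by total counts, from 31 and 16 UMIs; the difference between the sexes was not tested.

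**Figure D4:**
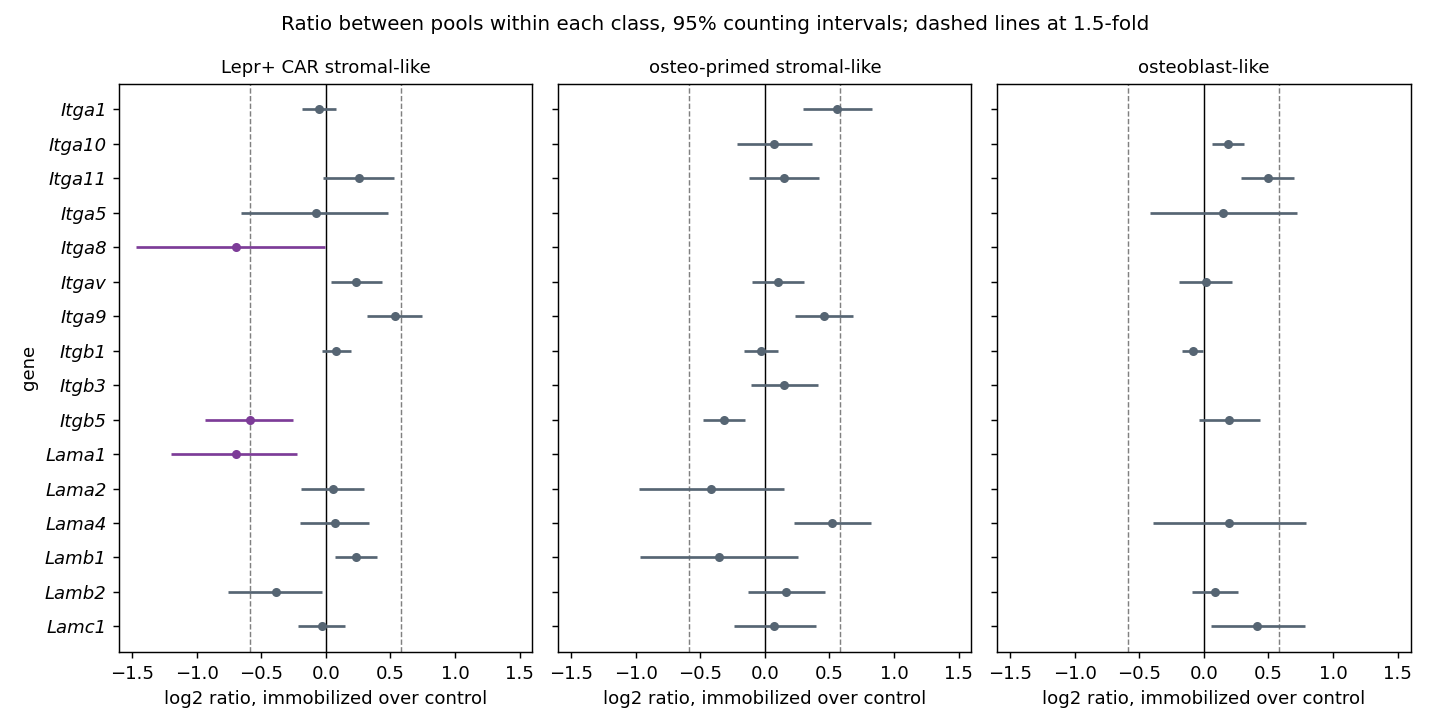
Log2 ratio of immobilized over control CPM for each member compared in a class, with its 95% counting interval; dashed lines mark 1.5-fold and, in osteoblast-like cells, ratios are relative to the median gene. Itga8, Lama1 and Itgb5 in CAR cells lie past the line at -0.70, -0.70 and -0.59, and no member of the other classes does.

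The 17 members under the count minimum were few in the compared classes or belonged to other cells. The leukocyte subunits Itgal, Itgam, Itgb2, Itgb2l and Itgb7, which serve adhesion and homing of white blood cells, reached no more than 6 UMIs in a compared class; the first 4 were highest in granulocyte-like cells (Itgam at 1234 CPM in the immobilized and 1243 CPM in the control pool) and Itgb7 in B lineage-like cells (91.0 and 110.6 CPM). Itga4, the alpha 4 subunit that binds Vcam1, was highest in erythroid-like cells (540.6 and 381.4 CPM), and at most 7.5 UMIs lay in a compared class. The laminin-binding subunits Itga6 and Itga3 were highest in endothelial-like cells, Itga6 at 338.2 and 243.8 CPM and Itga3 at 52.4 and 37.9 CPM, with at most 14 and 40.5 UMIs in a compared class. Lama5 and Lama3 were also highest in those cells, Lama5 at 166.7 and 92.1 CPM and Lama3 at 71.5 and 54.2 CPM. These cells numbered 17 in the immobilized and 9 in the control pool. Itga7, Itga2b, Itgb4 and Itgbl1 had at most 10.5 UMIs in a compared class.

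Some of these genes had lopsided counts. Lamc3, the gamma 3 chain, had 26.5 UMIs in immobilized and 4 in control osteo-primed cells and 26 and 5 in osteoblast-like cells, log2 ratios of 2.09 (0.71 to 4.21) and 2.39 (1.10 to 4.24). Of these, cluster 7 held 17.5 and 1.5 UMIs and cluster 4 held 17.5 and 0.5. Lama3 had 2.5 UMIs in immobilized and 24.5 in control CAR cells, and Itga6 1.5 and 14, while Lama5 had 23.5 and 14. They were picked for their counts after the values were seen, and with these numbers they remain single values of 2 pools.

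Lists of genes that work with these receptors were counted the same way. Of 28 talin, kindlin and focal adhesion adaptors, 18 were compared in CAR cells, with 0 past 1.5-fold higher and 1 lower in the immobilized pool; 16 in osteo-primed cells, with 0 higher and 0 lower; and 21 in osteoblast-like cells, with 2 higher and 2 lower. Over all genes, 4.15% were higher and 4.2% lower in CAR cells, 4.37% and 2.83% in osteo-primed cells, and 5.74% and 9.77% in osteoblast-like cells, so 2 of 21 lower is near the share of all genes. The gene lower in CAR cells was Fermt2, the kindlin of mesenchymal cells, at 237.7 CPM in the immobilized and 363.3 CPM in the control pool (log2 ratio -0.61, -0.79 to -0.44). The genes higher in osteoblast-like cells were the tensin Tns3, at 146.3 and 58.4 CPM (1.11, 0.91 to 1.31), and the talin Tln2, at 38.3 and 15.7 CPM (1.07, 0.68 to 1.48). Those lower there were Itgb1bp1 (-0.78) and Sharpin (-0.63), both binders of integrin tails that act as inhibitors. The list's median log2 ratio was 0.05, -0.01 and 0.12 in the CAR, osteo-primed and osteoblast-like classes, beside 0.00, 0.05 and -0.02 over all genes.

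Of 28 integrin ligands of the matrix or of cell surfaces, 17 were compared in CAR cells with 4 higher and 1 lower, 19 in osteo-primed cells with 0 higher and 3 lower, and 19 in osteoblast-like cells with 5 higher and 3 lower, beside 4.15% and 4.2%, 4.37% and 2.83%, and 5.74% and 9.77% of all genes. In CAR cells fibrillin Fbn1 stood at 2558 CPM in the immobilized and 1130 CPM in the control pool (1.18, 1.11 to 1.25) and thrombospondin Thbs2 at 87.7 and 49.8 CPM (0.82, 0.46 to 1.18). In osteo-primed cells collagen Col3a1 stood at 58.7 and 135.9 CPM (-1.21, -1.54 to -0.88) and Dmp1, an osteocyte matrix protein, at 213.2 and 361.0 CPM (-0.76, -0.94 to -0.58). In osteoblast-like cells tenascin Tnc stood at 990.5 and 359.2 CPM (1.24, 1.17 to 1.32), while Icam1, the counter-receptor of leukocyte integrins, stood at 0.731 and 12.3 CPM (-4.08, -6.61 to -2.68) and nephronectin Npnt at 15.1 and 23.5 CPM (-0.85, -1.32 to -0.41). With the clusters weighted alike, 1 of the osteoblast-like ligands was higher and 2 lower, and in CAR cells 2 were higher and 3 lower. The share of all genes under that weighting is not given. Tnc is also a marker used to name the osteo-primed class, where it stood at 9533 and 8290 CPM. The list's medians were -0.06, -0.10 and -0.07.

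Of 24 other basement membrane components only 9, 5 and 5 were compared in the CAR, osteo-primed and osteoblast-like classes, where 4.15%, 4.37% and 5.74% of all genes were higher and 4.2%, 2.83% and 9.77% lower. In CAR cells Col18a1, the source of endostatin, was higher at 35.9 CPM in the immobilized and 15.8 CPM in the control pool (1.18, 0.58 to 1.81) and fibulin Fbln1 lower at 111.7 and 240.5 CPM (-1.10, -1.35 to -0.87). In osteo-primed cells netrin Ntn1 was higher at 39.9 and 15.2 CPM (1.36, 0.71 to 2.12) and Col4a1, a chain of collagen IV, lower at 36.8 and 57.7 CPM (-0.65, -1.11 to -0.19). In osteoblast-like cells 0 were higher and 2 lower, Col15a1 at 28.5 and 56.6 CPM (-1.20) and Smoc2 at 55.4 and 87.1 CPM (-0.87). Their medians were 0.06, 0.29 and -0.26. Of 21 other laminin receptors and tetraspanin partners, 18 were compared in each class, and 0 were higher and 0, 1 and 1 lower: syndecan Sdc1 in osteo-primed cells (41.5 and 63.6 CPM, -0.62) and Rpsa in osteoblast-like cells (1212 and 1569 CPM, -0.59). Beside the 9.77% of all genes lower in osteoblast-like cells, 1 of 18 is no more than the background. Rpsa encodes a ribosomal protein also known as the laminin receptor and has near-identical pseudogene copies, so its count is uncertain. Their medians were -0.07, -0.12 and -0.16.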

How the data were processed

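The authors deposited raw UMI counts per gene and barcode for 4 matrices, made with Cell Ranger 7.0.0 on the mm10 build per the submitters' processing notes, with no annotation release named there. Gene names and barcodes were deposited as text. Of 32286 features, 32158 matched GENCODE vM21 on GRCm38, which gave the gene coordinates. Per the labels, the matrices are 2 lanes of each pool. Counts common to both lanes, entry by entry, made up 75.5% (immobilized) and 79.0% (control) of the lane 1 UMIs, and counts of the lanes agreed within sampling noise (mean chi-square per gene 0.588 and 0.537), so they were counted as 1 sample and averaged for levels, and summed for clustering, sex and co-detection.

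Kept cells had 500 genes or more and a mitochondrial share below 10%, and Scrublet calls (9 immobilized and 18 control barcodes) were removed. Scanpy 1.11.5 (2000 variable genes, 30 components, 15 neighbours, Leiden resolution 1) gave 18 clusters, named from 20 marker lists where at least 3 markers and 30% of a list were over 2-fold up and found in at least 10% of the cells; this scoring rule was set after clusters were seen. UMIs were summed per class, with exact Poisson intervals for levels, exact conditional binomial intervals for ratios (pseudocount 0.5) and exact Clopper-Pearson intervals for shares, all at 95%. PCR duplicates are collapsed by UMIs, but UMIs of a cell are not independent. The calculation was checked on simulated counts. Sequences are RefSeq's on GRCm38.p6. Members and gene lists were chosen with earlier results of these data known. Members at the count minimum of 50 are described one by one; from each related list at most the 2 highest and 2 lowest past 1.5-fold per class are named, of those whose interval leaves out a ratio of 1, and Spp1 and Ibsp, which met that rule, are not described. No sequence is printed for members outside the 5 shown.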

Additional observations from a re-analysis of the deposited data

Results flagged for a closer look

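Itgb5 moved in opposite directions in the sexes among osteoblast-like cells. In female cells the level was 75.5 CPM in the immobilized and 51.0 CPM in the control pool, and the log2 ratio relative to the median gene was 0.31 (0.04 to 0.58). In male cells the level was 64.6 CPM in the immobilized and 120.5 CPM in the control pool, and the log2 ratio by total counts was -0.91 (-1.52 to -0.26), from 61.5 and 36 UMIs. Male control osteoblast-like cells numbered only 33. Other members were also higher in them than in female control cells, such as Lama4 (41.8 against 6.41 CPM) and Lamc1 (53.6 against 20.7 CPM). These came from 12.5 and 16 male UMIs. Itga10 was alike, at 210.9 and 204.6 CPM. The difference between the sexes was not tested, and the pools do not say which animals gave the cells.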

How the results depend on the processing

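No paired analysis was possible because the lanes are runs of 1 pool a group. Member ratios stayed within their counting interval in 460 of 504 values under other settings; the sign was opposite in 55 of the 504, in 20 of them with the value outside that interval. Of the 3 members past 1.5-fold, Itgb5 turned in male CAR cells alone (0.21) and Lama1 in female CAR cells alone (0.27). Lama2 in osteo-primed cells, at -0.41, was at 2.66 with the stricter cell filter and at 2.31 when cells were clustered without the listed genes. In the main setting, 63.3% of its control and 37.4% of its immobilized UMIs in this class lay in the 5 cells with the most. The cause of the change was not tested. Itga1 in osteo-primed cells, at 0.56, was at -0.19 with the looser filter.

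Counts of members past 1.5-fold moved as follows. The share of all genes past 1.5-fold under each setting is not given, here or for the counts between classes below. No trait of the members can be read from these counts. With a minimum of 10 UMIs, which tests more genes, 3 were higher and 6 lower in CAR cells, 3 higher in osteo-primed and 3 higher in osteoblast-like cells. Single lanes gave 0 to 1 higher in CAR cells and 1 to 1 in osteo-primed cells. Keeping doublet calls, or Leiden resolution 2.0, gave 1 higher in CAR and 1 lower in osteo-primed cells. The looser filter gave 1 lower in CAR, 1 lower in osteo-primed and 1 higher in osteoblast-like cells; the stricter filter 1 lower in CAR and 1 higher in osteo-primed cells; clustering without listed genes 1 lower in CAR and 2 higher in osteo-primed cells. Male cells alone gave 0 lower in CAR and 1 lower in osteoblast-like cells, female cells alone 3 higher in osteo-primed cells, equal cluster mix 0 lower in CAR cells, and the mean over cells 1 higher in osteo-primed cells. Total counts gave 2 higher in osteoblast-like cells.

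Between classes, a minimum of 10 gave 7 higher and 8 lower (osteo-primed over CAR, immobilized), 10 lower (control), 5 higher and 13 lower (osteoblast-like over CAR, immobilized) and 2 higher (osteoblast-like over osteo-primed, control). Female cells alone gave 3 lower (immobilized) and 5 higher (control) for osteo-primed over CAR, 4 lower for osteoblast-like over CAR (immobilized) and 2 higher for osteoblast-like over osteo-primed (control), and male cells alone 4 lower there. Total counts gave 1 higher for osteoblast-like over CAR (control), and clustering without listed genes 2 higher for osteoblast-like over osteo-primed in each pool. Counting the adipocyte-like cluster as CAR, chosen after seeing the data, kept every count of members within 1.5 times. No cluster met the condition for leaving out clusters led by other markers.

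With 1 pool a group, animal spread is unknown. Depth limits the 17 members under 50 UMIs to counts and intervals.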
